A study of Oryzias latipes with 24 samples.

Results

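Sox11, fabp7, gap43 and snap25 are 4 genes known from different steps in the life of a neuron, which runs from the progenitor to the synapse. They were chosen by name and identifier, and they are 4 of the 26549 genes in the expression table of medaka (Oryzias latipes) embryogenesis. Whole embryos were collected at stages 6 (cleavage), 11 (blastula), 15 (mid-gastrula), 19 and 25 (somite formation), 29, 32, 36, 38 and 40 (later embryogenesis), and larvae at stage 41. Each of the 11 stages has 2 libraries, of which 20 were labelled with the inbred strain Hd-rR, while replicate 2 of stages 40 and 41 was labelled d-rR / Qurt. The labels name no treatment. The study's methods list a transgenic line, d-rR-Tg (olvas-GFP), a reporter of germ cells, and Qurt among its strains, and the labels do not say whether the d-rR / Qurt libraries carry the transgene. The study's methods describe many embryos pooled for a sample, so an SD here is a spread between pools. All values are TPM (the share of all transcripts, scaled to a fixed total), a level per transcript length and relative to the rest of the library. All 4 genes passed the filter of 1 TPM or more in at least 2 libraries and entered the test with 21179 genes in all.

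Vertebrate neurons arise from dividing progenitors that line the neural tube, leave the cell cycle, extend axons and finally form synapses. Sox11 is a transcription factor of the SoxC group, known in newborn neurons and in many other embryonic tissues. Fabp7, the brain fatty acid binding protein, is a small lipid carrier that marks radial glia, the progenitors of the vertebrate brain. Gap43 is a membrane-bound protein of the growth cone, the advancing tip of the axon. Snap25 is a SNARE protein of the axon terminal, where it joins syntaxin and synaptobrevin to fuse synaptic vesicles with the cell membrane.

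The files pair no symbols with identifiers, so each gene model was named by the overlap of its span with RefSeq gene spans on the same assembly, ASM223467v1. Sox11 (IGDB19787) lies on chromosome 22 from 10643822 to 10646963 on the plus strand. It has 3 transcript models with 1, 2 and 3 exons, and the deposited list of transcription factors places it in the HMG family. Its nearest neighbouring gene models were 194.657 kb and 316.88 kb away, where the median gap between neighbouring models was 2.78 kb. Fabp7 (IGDB20673) lies on chromosome 24 from 4464728 to 4465892 on the minus strand, with 1 transcript model of 4 exons and 651 bases. Gap43 (IGDB14141) lies on chromosome 13 from 32904057 to 32923755 on the plus strand, with 3 exons and 2116 bases of transcript over a span of 19.699 kb. Snap25 (IGDB20886) lies on chromosome 24 from 13322437 to 13354253 on the minus strand, with transcript models of 8 exons (2454 bases) and 6 exons (4259 bases). A further gene model overlaps snap25 on the opposite strand and was listed at 0 in 21 of the 22 libraries, with a highest value of 0.0076 TPM. The shares of the combined span that model and RefSeq gene had in common (Jaccard index) were 0.997 for sox11, 0.822 for fabp7, 0.9998 for gap43 and 0.998 for snap25.

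The 4 genes did not all become measurable at the same stage. The first stage with at least 1 TPM in both libraries was stage 11 for sox11, stage 15 for fabp7 and stage 25 for both gap43 and snap25. The highest stage mean was reached at stage 32 by sox11 and fabp7, at stage 36 by gap43 and at stage 38 by snap25. The first stage at or above 50% of that maximum was stage 11 for sox11, stage 29 for fabp7, stage 32 for gap43 and stage 38 for snap25. For gap43 and snap25 these stages are close to the limit, since gap43 was already at 48.0% of its maximum at stage 29 and snap25 at 48.2% at stage 36. In replicate 2 alone fabp7 and gap43 both first reached 50% of their maximum at stage 29. A level of 25% put fabp7 at stage 25, gap43 at stage 29 and snap25 at stage 36, with the same order. In whole embryos, fewer cells of a type and less RNA per cell cannot be told apart.

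**Figure D1:**
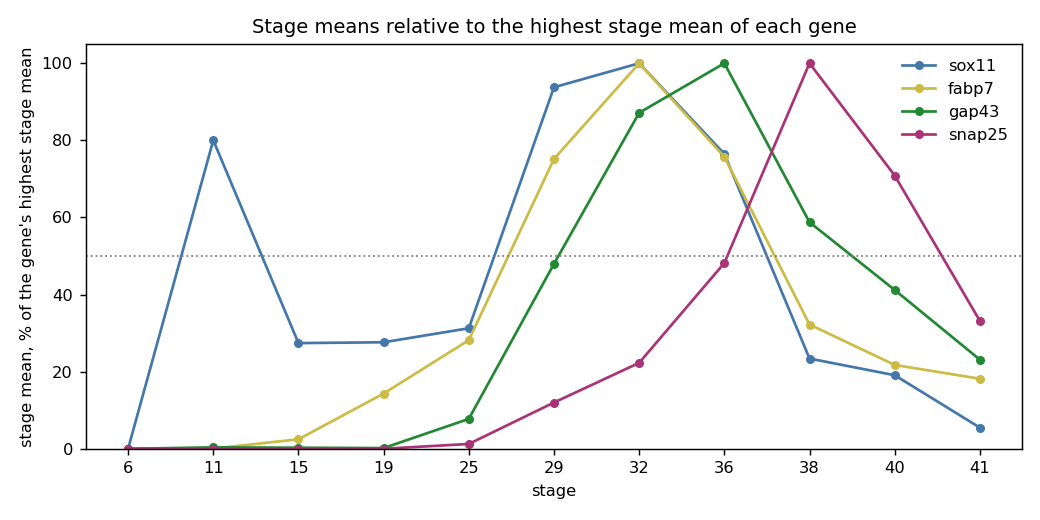
Stage mean of each gene (2 libraries per stage) as a percentage of its own highest stage mean (y axis) against stage (x axis, stages evenly spaced), with 50% as the dotted line. Sox11 has an early maximum at stage 11 and a later one at stage 32, fabp7 peaks at stage 32, gap43 at stage 36 and snap25 at stage 38.

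Sox11 was the earliest of the 4 and its profile had a pair of maxima. It was almost undetected at cleavage, with 0.0458 TPM in replicate 1 and 0.102 TPM in replicate 2 at stage 6. At stage 11 it stood at 229 and 127 TPM, far above both stage 6 libraries. It then dropped to 73.4 and 48.8 TPM at stage 15, below both stage 11 libraries. At stage 19 its libraries differed widely, at 26.3 and 96.8 TPM, and at stage 25 they were close, at 73.6 and 65.8 TPM. The second maximum spanned stage 29, with 223 and 194 TPM, and stage 32, with 242 and 204 TPM. At stage 36 the libraries parted again, with 99.8 TPM in replicate 1 and 241 TPM in replicate 2. These 2 libraries also differed in the markers of skeletal muscle (acta1 and mylpf), whose summed level was 18024 TPM in replicate 1 and 8498 TPM in replicate 2. The summed pan-neuronal markers (elavl3, elavl4, stmn2 and ina) were also higher in replicate 1, at 654 TPM against 423 TPM in replicate 2. Replicate 2 held 1.18 times the fabp7 of replicate 1, 1.14 times its gap43 and 1.24 times its snap25. The part of these differences in the sox11 values was not tested. Sox11 was lower in both libraries of each later stage, with 57.3 and 47.0 TPM at stage 38, 43.9 and 41.2 TPM at stage 40, and 15.7 and 8.78 TPM at stage 41.

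Adjacent stages were compared with limma on log2(TPM + 1), and a change counted as called at an adjusted p over all genes below 0.05 together with a log2 change of 1 or more in size. With 2 against 2 libraries an exact permutation test cannot go below p = 0.333, so the spread was estimated over all stages and genes. Sox11 rose from stage 6 to 11 by 7.32 ± 0.50 (SE) on the log2 scale (limma adjusted p = 1.85e-08), a step at which 7.65% of all genes tested rose. Sox11 fell by 1.498 ± 0.50 from stage 11 to 15 (limma adjusted p = 0.0227), where 20.1% of all genes fell. This call was lost with median-of-ratios scaling (log2 change -1.15, limma adjusted p = 0.0776), with quantile normalization (-1.24, 0.0783), without replicate 1 of stage 11 (-1.08, 0.177) and without replicate 2 of stage 15 (-1.21, 0.158). The step from stage 25 to 29 gave a log2 change of 1.57 ± 0.50 and was not called (limma adjusted p = 0.0593), but it was called when any 1 library of stage 19 or of stage 36 was left out (adjusted p from 0.0186 to 0.0431). Over the longer interval from stage 25 to 32 sox11 rose by 1.66 (limma adjusted p = 0.0224, where 15.7% of genes rose), a call that was lost when any of the 4 libraries of these stages was left out (adjusted p from 0.0815 to 0.114). From stage 15 to 32 it rose by 1.87 (limma adjusted p = 0.00391, where 33.8% of genes rose). The difference between its early and late maxima was not called, at 0.38 ± 0.50 (SE) on the log2 scale for stage 32 from stage 11 (limma adjusted p = 0.533), and its sign turned without replicate 2 of stage 11 (-0.046).

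The decline of sox11 after stage 32 exceeded the spread between libraries. From stage 32 to 38 it fell by 2.08 on the log2 scale (limma adjusted p = 0.00453, where 11.0% of genes fell), and from stage 32 to 41 it fell by 4.13 (4.19e-06, where 24.6% of genes fell). The stages of such longer intervals were picked from the levels themselves, so these p-values describe the profile. Among single steps, the one from stage 36 to 38 gave -1.56 and was not called (limma adjusted p = 0.0818), but it was called without either library of stage 19 (0.0353 and 0.0354) or without replicate 1 of stage 36 (-2.19, 0.0460). The step into the larva, stage 40 to 41, was called with a fall of 1.77 ± 0.50 (limma adjusted p = 0.0186, where 9.71% of genes fell). That last call was lost without the libraries of the other strain (-1.43, 0.292), without replicate 1 of stage 40 (-1.72, 0.0813), without its replicate 2 (-1.81, 0.0712) and without replicate 2 of stage 41 (-1.38, 0.164).

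**Figure D2:**
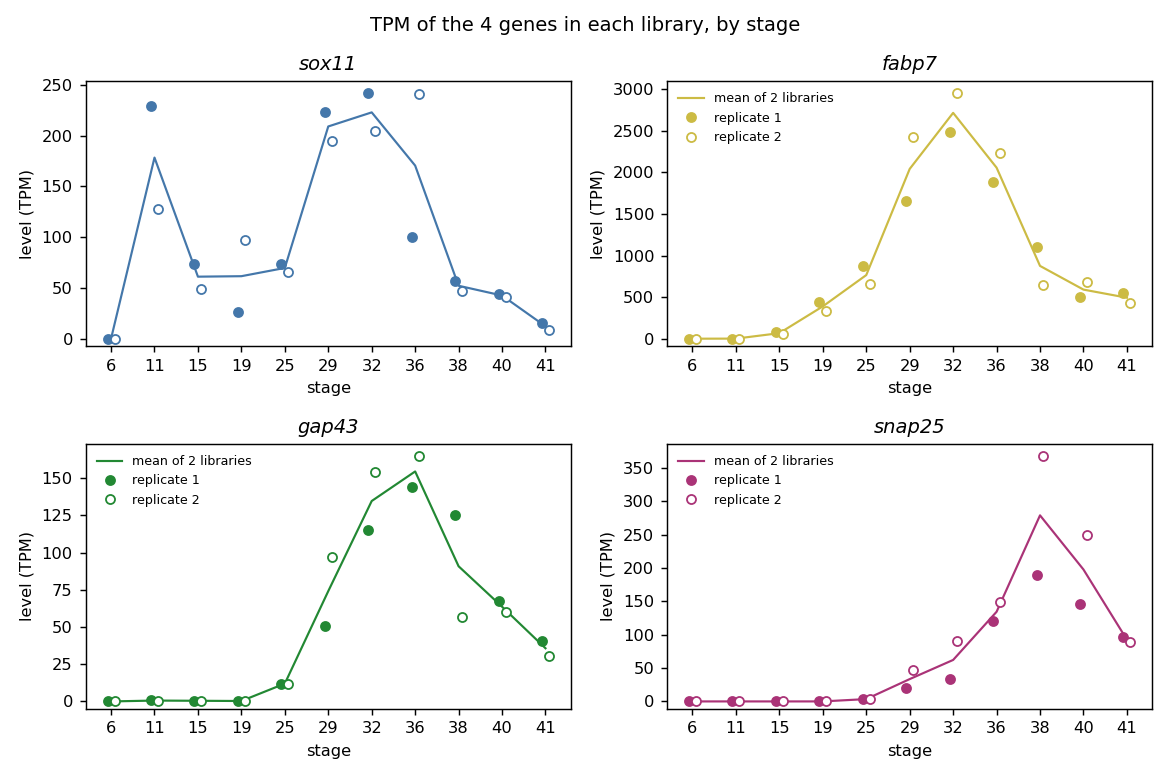
TPM (y axis, linear, a scale of its own in each panel) of sox11, fabp7, gap43 and snap25 in each of the 22 libraries against stage (x axis), with filled points for replicate 1, open points for replicate 2 and a line through the mean of the 2 libraries. Sox11 drops between stage 11 and stage 15 and is high again at stages 29 to 32, and the libraries of stage 36 lie at 99.8 and 241 TPM.

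Ordered by stage mean, sox11 was highest at stage 32 (223 ± 26.5 TPM, SD, n = 2), followed by stages 29, 11, 36, 25, 19, 15, 38, 40, 41 and 6. Stages 32, 29, 11 and 36 each overlapped the next in this order, so their ranks are not separated. Stage 36 stood above stage 25 in both libraries, by 1.15 on the log2 scale, but this difference was not called (limma adjusted p = 0.0844). Stages 25, 19, 15 and 38 again overlapped from one to the next. Stage 41 lay above stage 6 in both libraries, by a log2 difference of 3.57 (limma adjusted p = 5.26e-06), a contrast in which 39.5% of genes were higher at stage 41.

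Fabp7 was the most abundant of the 4 from stage 15 onwards in every library, and it built up over more steps than the others. It was near 0 at first, with 0.111 and 0.453 TPM at stage 6 and 0.435 and 2.37 TPM at stage 11. At stage 15 it had reached 77.2 and 56.9 TPM. It stood at 442 and 337 TPM at stage 19 and at 877 and 654 TPM at stage 25, each time above both libraries of the stage before. The plateau followed with 1655 and 2430 TPM at stage 29, 2482 and 2953 TPM at stage 32, and 1884 and 2232 TPM at stage 36. Both libraries of stage 32 stood above both of stage 36, while those of stages 29 and 36 overlapped. Fabp7 then decreased to 1100 and 652 TPM at stage 38, 497 and 686 TPM at stage 40, and 554 and 434 TPM at stage 41. The libraries of stage 38 and stage 40 overlapped, and so did those of stage 40 and stage 41.

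Fabp7 rose at 3 of the 10 steps. From stage 11 to 15 it rose by 4.94 ± 0.39 (SE) on the log2 scale (limma adjusted p = 4.76e-08), a step at which 15.1% of all genes rose. From stage 15 to 19 it rose by 2.52 ± 0.39 (limma adjusted p = 0.000159, where 9.85% of genes rose). Both rises were called under every alternative that was run. The third rise, from stage 25 to 29, was smaller at 1.40 ± 0.39 (limma adjusted p = 0.0285, where 7.22% of genes rose). It was no longer called with a pseudocount of 0.1 (limma adjusted p = 0.130), with quantile normalization (0.0606), without replicate 1 of stage 25 (0.0813), without its replicate 2 (0.225) or without replicate 2 of stage 29 (0.344). Between these, the step from stage 19 to 25 had a log2 change of 0.97 and was not called (limma adjusted p = 0.151).

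No single step of the decline of fabp7 was called with all 22 libraries. The largest, from stage 36 to 38, had a log2 change of -1.27 ± 0.39 (limma adjusted p = 0.0686), and it was called without replicate 1 of stage 11 (0.0372), without its replicate 2 (0.0371) or without replicate 1 of stage 38 (-1.65, 0.0277). Taken from its maximum, fabp7 fell by 1.68 from stage 32 to 38 (limma adjusted p = 0.00351) and by 2.46 from stage 32 to 41 (7.18e-05). The first of these was not called without replicate 2 of stage 38 (-1.30, limma adjusted p = 0.0664). At stage 41 fabp7 was still at 18.2% of its highest stage mean, against 5.49% for sox11. The order of its stage means was 32, 36, 29, 38, 25, 40, 41, 19, 15, 11 and 6, and stages 38, 25, 40, 41 and 19 each overlapped the next. The clear breaks lay between stages 29 and 38, with a log2 difference of 1.24 (limma adjusted p = 0.0169, where 13.1% of genes were lower at stage 38), between 19 and 15, and between 15 and 11.

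Gap43 appeared during somite formation. It was listed at 0 in both libraries of stage 6, and it was at 1.04 and 0.105 TPM at stage 11, 0.479 and 0.382 TPM at stage 15 and 0.0491 and 0.513 TPM at stage 19. At stage 25 both libraries stood at nearly the same level, 12.0 and 11.9 TPM. The values then spread and climbed, with 50.9 and 97.2 TPM at stage 29, 115 and 154 TPM at stage 32, and 144 and 165 TPM at stage 36. The libraries of stages 32 and 36 overlapped. At stage 38 replicate 1 remained at 125 TPM and replicate 2 stood at 56.6 TPM. The later stages were lower, with 67.1 and 60.1 TPM at stage 40 and 40.8 and 30.6 TPM at stage 41.

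Gap43 rose by 3.36 ± 0.39 (SE) on the log2 scale from stage 19 to 25 (limma adjusted p = 1.64e-05), a step at which 7.18% of all genes rose, and by 2.46 ± 0.39 from stage 25 to 29 (0.000555). Both calls held under every alternative that was run. The 3 steps before stage 19 and the 5 steps after stage 29 were not called. The step from stage 29 to 32 had a log2 change of 0.91 (limma adjusted p = 0.562). From its highest mean at stage 36 (154 ± 14.7 TPM, SD, n = 2) to stage 41 gap43 fell by 2.09 (limma adjusted p = 0.000475, where 23.0% of genes fell), a call that held under every alternative.

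In the order of its stage means gap43 ran 36, 32, 38, 29, 40, 41, 25, 11, 15, 19 and 6. The first 5 of these overlapped from one to the next. Stage 41 stood above stage 25 by 1.49 on the log2 scale (limma adjusted p = 0.00448, where 24.0% of genes were higher), and stage 25 above stage 11 by 3.11 (4.09e-06, where 25.7% of genes were higher). The larval level of gap43 thus lay between that of its onset and that of its maximum.

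Snap25 began with gap43 and peaked after it. It was listed at 0 in both libraries of stages 6 and 15, and the highest value of any library up to stage 19 was 0.0424 TPM. At stage 25 it was at 3.08 and 3.92 TPM. Its libraries at stage 29 (20.2 and 46.8 TPM) and at stage 32 (33.9 and 90.5 TPM) differed by 2.32 and 2.67 times, each time with the higher value in replicate 2. At stage 36 they were closer, with 120 and 149 TPM. The highest values came at stage 38, with 190 and 368 TPM, and at stage 40, with 147 and 249 TPM, and these stages overlapped. The larval libraries were at 96.5 and 88.9 TPM, below both libraries of stages 36, 38 and 40.

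Snap25 rose at the same steps as gap43. The rise from stage 19 to 25 was 2.13 ± 0.44 (SE) on the log2 scale (limma adjusted p = 0.00359), and the rise from stage 25 to 29 was 2.83 ± 0.44 (0.000453). Both calls held under every alternative that was run. The following steps were each below the threshold, with log2 changes of 0.83 from stage 29 to 32 (limma adjusted p = 0.762), 1.25 from stage 32 to 36 (0.135) and 0.98 from stage 36 to 38 (0.223). The step from stage 32 to 36 was called without replicate 2 of stage 32 (1.95, limma adjusted p = 0.0193). Over the whole interval from stage 29 to 38 snap25 rose by 3.06 (limma adjusted p = 3.79e-05, where 19.7% of genes rose). From stage 38 to 41 it fell by 1.51 (limma adjusted p = 0.0157, where 16.2% of genes fell), which was not called without replicate 2 of stage 38 (-1.03, 0.166), without replicate 1 of stage 41 (-1.56, 0.0557), without its replicate 2 (-1.45, 0.0799) or without the other strain (-1.45, 0.0792). The order of its stage means was 38, 40, 36, 41, 32, 29, 25, 19 and 11, with stages 15 and 6 both listed at 0. From stage 38 down to stage 29 in this order, neighbouring stages overlapped except stages 36 and 41, whose difference of 0.53 on the log2 scale was not called (limma adjusted p = 0.355).

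**Figure D3:**
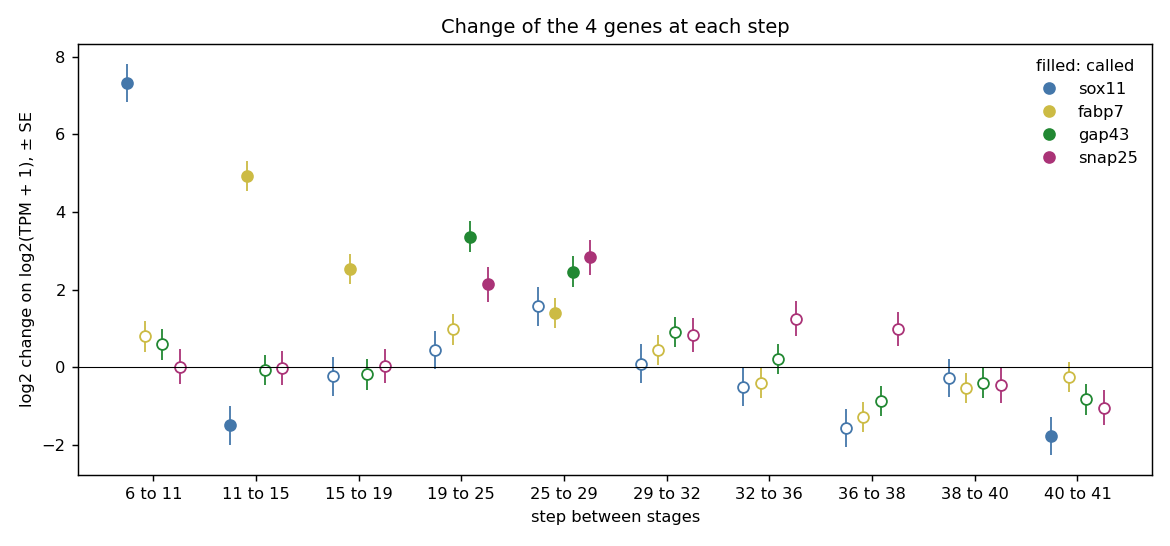
Log2 change on log2(TPM + 1) (y axis, ± SE from limma) of the 4 genes at each of the 10 steps between stages (x axis), with filled points for called changes and open points for the others. The called rises move from sox11 (stage 6 to 11) through fabp7 (11 to 15 and 15 to 19) to gap43 and snap25 (19 to 25), and fabp7, gap43 and snap25 were all called from stage 25 to 29.

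Each of the 4 genes varied over the stages by the F test of limma, with adjusted p-values of 4.95e-09 for sox11, 4.33e-13 for fabp7, 8.32e-12 for gap43 and 7.32e-12 for snap25. This alone sets them apart from few genes, since 92.7% of all genes tested varied by this test.

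The balance between the 4 genes was also read within a library, where both values share the same scaling. The ratio of gap43 to fabp7 was 0.0137 and 0.0182 at stage 25, 0.0464 and 0.0522 at stage 32, and 0.114 and 0.0868 at stage 38. It was 0.135 and 0.0876 at stage 40, and at stage 41 it was lower again, at 0.0737 and 0.0706. The ratio of snap25 to gap43 was 0.256 and 0.329 at stage 25, 0.833 and 0.905 at stage 36, and 2.37 and 2.90 at stage 41. Snap25 was thus the lower of this pair in both libraries of every stage from 25 to 36 and the higher in both libraries of every stage from 38 to 41. Between stages 25 and 41 the ratio of snap25 to sox11 shifted most, from 0.0419 and 0.0596 to 6.16 and 10.1. Fabp7 exceeded sox11 in all 18 libraries from stage 15 on, by 1.05 and 1.17 times at stage 15 and by 35.3 and 49.4 times at stage 41.

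**Figure D4:**
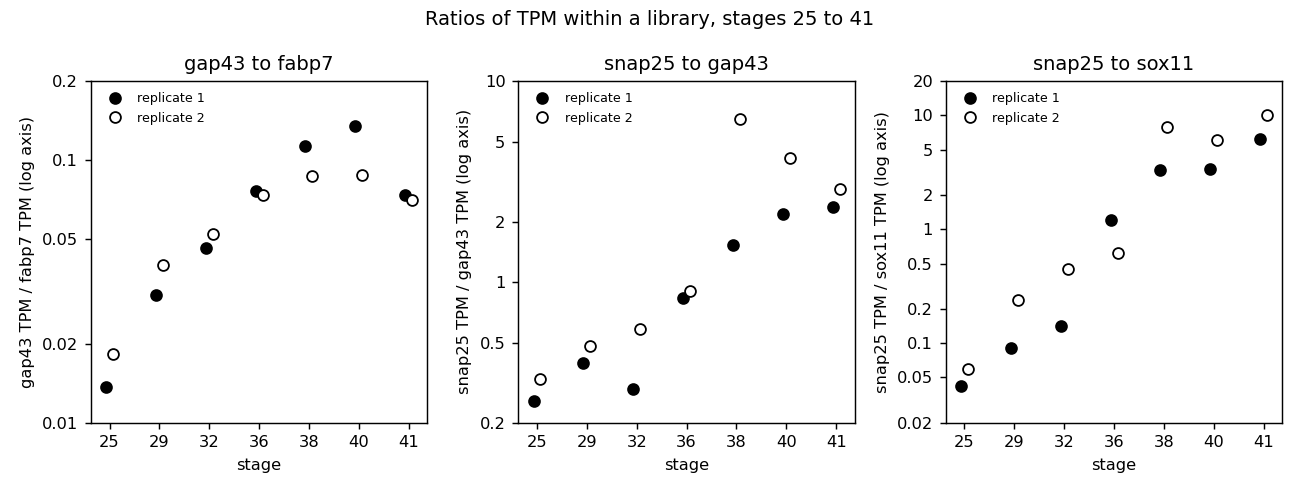
Ratio of TPM within a library (y axis, log scale) of gap43 to fabp7, snap25 to gap43 and snap25 to sox11 against stage (x axis, stages 25 to 41), with filled points for replicate 1 and open points for replicate 2. Snap25 passes gap43 between stage 36 and stage 38 in both replicates, from 0.833 and 0.905 to 1.52 and 6.51.

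The libraries of stage 38 differed in opposite directions for these genes. Replicate 2 held 1.94 times the snap25 of replicate 1, but 0.453 times its gap43, 0.592 times its fabp7 and 0.820 times its sox11. In the same libraries the summed level of the 4 matched pan-neuronal markers (elavl3, elavl4, stmn2 and ina) was 506 TPM in replicate 1 and 224 TPM in replicate 2. The gut marker fabp2 was at 72.0 TPM in replicate 1 and 788 TPM in replicate 2, and the part of these differences in the values of the 4 genes was not tested. Without replicate 1 of stage 38 the fall of gap43 from stage 36 to 38 was called (-1.43, limma adjusted p = 0.0419), whereas with both libraries it was not (-0.86, 0.227).

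The libraries held RNA of several tissues, as whole embryos do. All 16 matched markers of muscle, heart, liver, lens, blood, skin, gut and neurons were at 10 TPM or more at some stage. The summed pan-neuronal level was 2.33 to 3.77 TPM at stage 6, 399 to 400 TPM at stage 29 and 541 to 701 TPM at stage 32. It was 209 to 299 TPM at stage 40 and 85.1 to 146 TPM at stage 41, while summed skeletal muscle was 19174 to 30730 TPM and 30359 to 32037 TPM at these stages. TPM is a share of the library, and the part of the change in muscle in the lower neural values of the larva was not tested.

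Close relatives of the 4 genes were looked up by symbol. No gene model was matched to sox4 or sox12, the other members of the SoxC group, and copies that RefSeq carries under locus numbers were not analysed here. Sox2, a SoxB transcription factor that maintains neural progenitors, was the next most abundant of the named Sox genes, with 134 ± 38.4 TPM (SD, n = 2) at its highest stage, 25. It rose with sox11 from stage 6 to 11, by 6.17 (limma adjusted p = 2.62e-08), and its later levels were lower, with 71.5 ± 10.5 TPM at stage 32 and 11.1 ± 2.18 TPM at stage 41. Basp1, a growth cone protein of the same type as gap43, had the same onset. It was listed at 0 at stages 6 and 11, and it rose by 2.87 from stage 19 to 25 (limma adjusted p = 0.000165) and by 2.13 from stage 25 to 29 (0.00292). Its highest mean was at stage 36 (264 ± 107 TPM), as for gap43.

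The SNAP genes outside the synapse had earlier maxima. Snap23, which serves membrane fusion in many cell types, was at 38.6 and 45.8 TPM at stage 6 and highest at stage 15, with 73.1 and 80.9 TPM. It rose by 1.79 from stage 11 to 15 (limma adjusted p = 0.00486) and fell by 2.17 from stage 15 to 19 (0.00260, where 8.02% of all genes fell). Snap29, another widely used SNARE, was also highest at stage 15 (102 ± 27.1 TPM, SD, n = 2) and rose by 1.16 from stage 11 to 15 (limma adjusted p = 0.00414). Snap47 stayed between 3.75 and 10.5 TPM in all 22 libraries. In the Fabp family, fabp2, the intestinal form, was at 72.0 and 788 TPM at stage 38, having been at 3.68 and 9.59 TPM at stage 36. Rbp4, a retinol carrier of the plasma that was listed with this family but belongs to the lipocalins, rose by 6.48 from stage 11 to 15 (limma adjusted p = 5.77e-07) and was highest at stage 19 (1935 ± 597 TPM).

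Lists of genes from the same steps of neuron formation were counted by the same fit, leaving out the 4 genes themselves. Of the 13 other neural progenitor genes tested, 5 rose, 2 fell and 6 did not pass the test from stage 11 to 15, where 15.1% of all genes rose and 20.1% fell. From stage 15 to 19, 7 rose and 6 did not pass, where 9.85% of all genes rose. These are the first steps at which fabp7 was called. The median log2 change of the list from stage 15 to 19 was 1.25, beside 0.01 over all genes. Pax6, which patterns the eye and forebrain, rose by 3.44 at this step (limma adjusted p = 6.99e-07), and the Notch receptor gene notch1 by 2.33 (0.000108). Vim, an intermediate filament gene, fell by 2.69 from stage 11 to 15 (5.15e-06) and rose by 2.79 from stage 15 to 19 (1.22e-05). The most abundant members were glul, slc1a2 and sox2. Glul, slc1a2 and slc1a3 are also members of the glia and myelin list below, so the 2 lists share values. Glul (glutamine synthetase) was at 447 ± 88.1 TPM (SD, n = 2) at stage 11 and fell by 1.06 to stage 15 (0.0109), and slc1a2 (a glutamate transporter of glia) was at 207 ± 24.5 TPM at stage 38. From stage 40 to 41, 8 of the 13 fell, with a median of -1.21 beside -0.22 over all genes (9.71% of all genes fell), and 2 fell when the other strain was left out, or 4 without replicate 2 of stage 41 alone.

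Of the 13 other proneural and newborn neuron genes, 9 rose between stages 19 and 25 and 7 between stages 25 and 29, while the other 4 and 6 did not pass the test. The shares of all genes that rose at these steps were 7.18% and 7.22%. The medians were 1.67 and 1.86, beside 0.15 and 0.08 over all genes. Neurod1, a proneural transcription factor, rose by 3.61 from stage 19 to 25 (limma adjusted p = 1.50e-06), and isl1, a factor of motor and sensory neurons, by 2.54 from stage 25 to 29 (0.000136). The most abundant members besides sox11 were elavl3, an RNA-binding protein of neurons (281 ± 133 TPM, SD, n = 2, at stage 32), dcx and the Notch ligand gene dld. Dcx, a microtubule-binding protein of migrating neurons, was at 237 ± 66.7 TPM at stage 6 and fell by 4.65 from stage 15 to 19 (8.91e-08) before it rose by 2.23 from stage 25 to 29 (0.000222). Sox11, which was counted apart from this list, was not called at either of the 2 steps. Nor was it from stage 15 to 19, where 5 of the 13 rose and 1 fell (of all genes, 9.85% rose and 8.02% fell). Fewer of the 13 rose there when any 1 library of stages 15 and 19 was left out. Where sox11 was called, 1 of the 13 rose from stage 6 to 11 (7.65% of all genes rose). From stage 11 to 15, 2 rose and 3 fell (15.1% and 20.1% of all genes). From stage 40 to 41, 7 fell (9.71% of all genes fell). Most of these falls were no longer called without the other strain. Fewer were also called without replicate 1 of stage 40 or without replicate 2 of stage 41. The count of 9 rises from stage 19 to 25 was 5 without replicate 1 of stage 19, 5 without replicate 2 of stage 25 and 4 with quantile normalization.

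Of the 19 other axon growth genes, 7 rose and 12 did not pass the test at each of the steps at which gap43 was called, where 7.18% and 7.22% of all genes rose. The medians were 0.62 from stage 19 to 25 and 1.07 from stage 25 to 29, beside 0.15 and 0.08 over all genes. Stmn2, a regulator of microtubules in growing axons, rose by 2.62 and 2.58 at these steps (limma adjusted p = 0.000460 and 0.000733) and was highest at stage 36 (302 ± 60.6 TPM, SD, n = 2). The cell adhesion gene l1cam rose by 1.27 and 2.07 (0.0219 and 0.000674), and the guidance gene dpysl5 by 1.10 and 1.07 (0.0310 and 0.0403). All of these genes were also called at earlier steps, where gap43 was not. From stage 11 to 15 stmn2 rose by 1.82 (limma adjusted p = 0.00238) and l1cam by 1.42 (0.00270). From stage 15 to 19 stmn2 fell by 2.03 (0.00239) and dpysl5 rose by 3.44 (1.16e-06). From stage 11 to 15, before gap43 was called, 7 of the 19 rose and 2 fell, where 15.1% of genes rose and 20.1% fell. With a pseudocount of 0.1, 11 of the 19 rose at that step, and fewer than 7 rose without replicate 2 of stage 11. From stage 15 to 19, 5 of the 19 rose and 3 fell, where 9.85% of genes rose and 8.02% fell. Fewer than 5 rose without replicate 1 of stage 15. The highest stage mean was at stage 32 for 7 of the 19 and at stage 36 for 6, beside 6.99% and 10.1% of all genes tested. The 7 rises from stage 19 to 25 were 2 without replicate 1 of stage 19 and 4 without either library of stage 25 or with quantile normalization, and the 7 from stage 25 to 29 were 3 without replicate 2 of stage 29.

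Of the 27 other synaptic genes, 1 rose and 1 fell from stage 19 to 25, the step at which snap25 was first called, where 7.18% of all genes rose and 1.79% fell. From stage 25 to 29, 14 rose and 13 did not pass the test, where 7.22% of all genes rose. At the earlier step syt4, a synaptotagmin, rose by 2.17 (limma adjusted p = 0.000206) and syngr1, a synaptogyrin, fell by 1.01 (0.0258). Before this, syt4 had risen by 3.49 from stage 11 to 15 (limma adjusted p = 2.84e-07) and fallen by 3.18 from stage 15 to 19 (3.14e-06). The calcium sensor gene syt1 rose by 1.79 from stage 25 to 29 (0.0103), the GABA-synthesizing enzyme genes gad1 and gad2 by 2.60 and 2.53 (0.000366 and 0.000937), and the synaptobrevin gene vamp2 by 1.47 (0.0254). From stage 32 to 36, 7 rose, where 4.12% of all genes rose. Of these, dnm1 and nlgn3 had also risen from stage 25 to 29, and the other 5 had not, among them syn2, a synapsin gene (1.85, limma adjusted p = 0.00350). The highest stage mean was at stage 38 for 19 of the 27, the stage of the snap25 maximum, and 10.9% of all genes tested had theirs there. From stage 40 to 41, 18 of the 27 fell and 9 did not pass the test, with a median of -1.41 beside -0.22 over all genes (9.71% of all genes fell). The most abundant members besides snap25 were napa, which helps to take SNARE complexes apart (184 ± 48.7 TPM, SD, n = 2, at stage 11), vamp2 (98.7 ± 34.1 TPM at stage 38) and syt11 (93.5 ± 32.01 TPM at stage 36).

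These synaptic counts depended on single libraries. The 14 rises from stage 25 to 29 were 7 without either library of stage 25 or with quantile normalization, and 4 without replicate 2 of stage 29. The 7 rises from stage 32 to 36 were 0 without replicate 1 of stage 32, 0 without replicate 1 of stage 36 and 4 with a pseudocount of 0.1. The 18 falls into the larva were 9 without replicate 1 of stage 41, 10 with a pseudocount of 0.1 and 4 without the other strain.

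A list of SNARE genes that serve other membranes, with the syntaxin-binding gene stxbp3, gave a comparison for snap25. Of its 20 genes, 0 were called at any of the 7 steps from stage 19 to 41 by limma. Of the 140 values, 5 had an unadjusted p under 0.05. Calls were also rare among all 21179 genes between stages 29 and 32 (0 rose, 1 fell) and between stages 38 and 40 (64 rose, 7 fell). Elsewhere, 7.18% (stages 19 to 25) and 7.22% (25 to 29) of all genes rose. Later shares of rises were 4.12% (32 to 36), 3.08% (36 to 38) and 5.22% (40 to 41). Falls at these other steps numbered between 57 and 2057 genes. The medians of the 20 genes of this list over the 7 steps lay between -0.30 and 0.11. From stage 11 to 15, 6 rose and 3 fell (3 rose without replicate 1 of stage 11), where 15.1% of all genes rose and 20.1% fell. The most abundant were the Golgi SNAREs gosr1 (161 ± 81.1 TPM, SD, n = 2) and stx5 (128 ± 40.02 TPM), both at stage 6, and snap29. Of the 12 genes of the glia and myelin list, 3 rose and 9 did not pass the test from stage 36 to 38, where 3.08% of all genes rose. Slc1a3 rose by 2.04 (limma adjusted p = 1.49e-05), the myelin protein gene mpz by 2.52 (0.00159) and mag, a myelin-associated glycoprotein gene, by 1.18 (0.0107). From stage 40 to 41, 1 of the 12 rose, 2 fell and 9 did not pass, where 5.22% of all genes rose and 9.71% fell. Cldn11, a claudin gene of myelin, rose by 4.12 (limma adjusted p = 4.93e-08). The glutamate transporter genes slc1a2 and slc1a3 fell by 1.88 and 1.21 (limma adjusted p = 0.0143 and 0.000257).

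**Figure D5:**
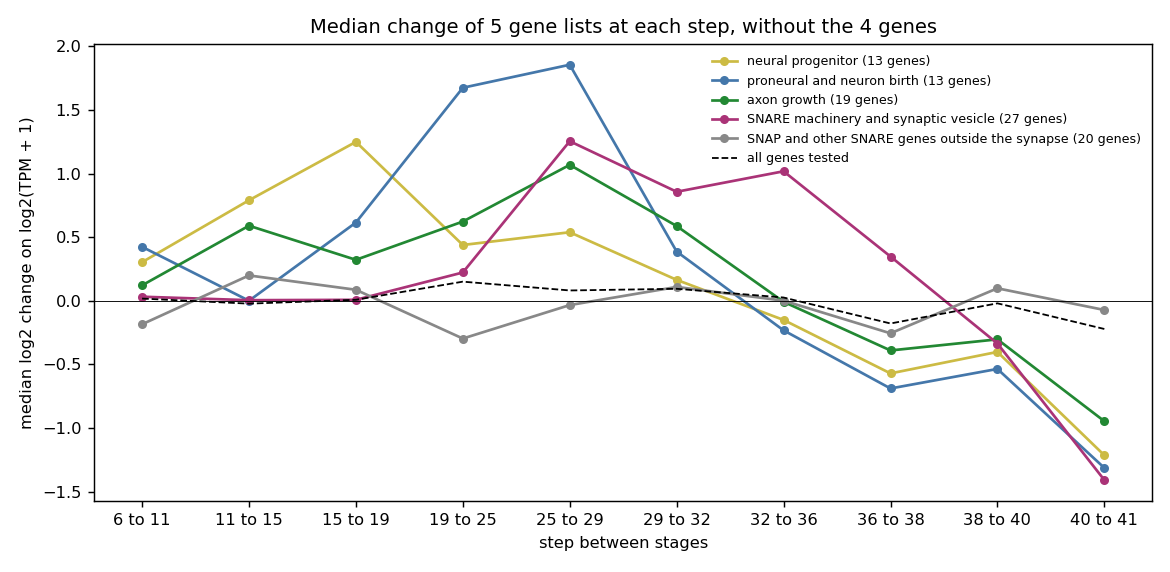
Median log2 change on log2(TPM + 1) (y axis) of 5 gene lists at each step between stages (x axis), without sox11, fabp7, gap43 and snap25, and of all genes tested (dashed line). The progenitor list is highest from stage 15 to 19 (1.25), the proneural list from stage 25 to 29 (1.86), and the synaptic list is above 1 from stage 25 to 29 (1.25) and from stage 32 to 36 (1.02).

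The genes most like each of the 4 were picked as the 5 with the highest Pearson correlation of log2(TPM + 1) over the 22 libraries, among 7876 genes with a symbol and a highest stage mean of 10 TPM or more. Libraries of one stage share their stage, so these values describe the profiles and carry no test. For sox11 they were fzd4 (r = 0.930), a Wnt receptor gene, then fblim1 (0.921), hey1 (0.921), a Notch target, cdkn1c (0.914), an inhibitor of the cell cycle, and znf710 (0.903). Of these, 4 had their highest stage mean at stage 11 and cdkn1c at stage 29 (203 ± 27.0 TPM, SD, n = 2). At stage 11, hey1 stood at 183 ± 173 TPM and znf710 at 102 ± 77.8 TPM. Fzd4 was at 95.6 ± 33.6 TPM and fblim1 at 21.1 ± 11.8 TPM there. For fabp7 the 5 genes were hdac6 (0.987), prrx1 (0.985), p3h4 (0.980), pebp1 (0.980) and r3hdm4 (0.979). Among them prrx1, a homeobox gene of the mesenchyme, peaked at stage 32 (109 ± 16.8 TPM).

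For gap43 the list was cdh15 (0.993), a cadherin gene of muscle, mllt11 (0.990), sema3c (0.990), an axon guidance signal, islr2 (0.989) and ank2 (0.988), an ankyrin gene. All 5 had their highest stage mean at stage 36, as gap43 did. For snap25 it was eno2 (0.994), the enolase of neurons, ak1 (0.992), hsp70-3 (0.990), rapsn (0.990), which clusters acetylcholine receptors at the neuromuscular junction, and scg2 (0.990), a protein of secretory granules. Of these, 4 were highest at stage 38 and rapsn at stage 40. With Spearman correlation 3 of the 5 genes stayed in the list for sox11, 1 for fabp7, 0 for gap43 and 1 for snap25.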

How the data were processed

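Strand-specific poly(A) RNA libraries of whole embryos and larvae were sequenced as read pairs. Per the submitters' processing notes, HISAT2 2.1.0 and StringTie 1.3.3b were used, and the deposited values are TPM per gene, as the authors computed them. TPM keep no read counts, so the depth of each library is unknown here and precision rests on 2 libraries per stage. The columns of replicate 1 summed to between 98.0% and 99.8% of the fixed total of TPM, to which those of replicate 2 summed. The 22 columns were matched to samples by stage and replicate number, 0 columns were left without a sample, and the authors' mean columns were not used. A table of adult gonads was not used, since its gene numbering could not be tied to the gene models. Replicate numbers did not count as pairs, and the methods describe pools of synchronous embryos without saying whether the 2 pools of a stage came from separate collections, so p-values measure the spread between these libraries only.

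Linear models of log2(TPM + 1) were fitted in limma 3.58.1 (R 4.3.3) to the 21179 genes that reached 1 TPM in 2 libraries or more. Each stage had its own mean, and the prior variance followed the mean level of a gene. P-values were adjusted by Benjamini-Hochberg over all genes of a contrast, and calls needed an adjusted p below 0.05 with a log2 change of 1 or larger. The fold on this scale understates changes of low genes. The scripts were tested on simulated data. Symbols came from span overlap with RefSeq genes (Jaccard index of at least 0.5 without regard to strand). This gave a symbol to 9389 of 26549 models, and 18568 models matched any RefSeq gene, against 2389 after a shift of 200000 bases. Named genes are the 4 members, the 5 genes most correlated with each, the 3 most abundant of each list, close relatives by symbol, and further list members chosen after their values were seen. The 4 genes, the lists and the tests were chosen with earlier results of these data known. The lists matched 15 of 26 progenitor, 14 of 28 proneural, 21 of 42 axon growth, 27 of 59 synaptic, 20 of 28 other SNARE, 12 of 16 glia, 12 of 20 Sox and 3 of 18 Fabp symbols. Alternatives were another pseudocount, no filter, median-of-ratios scaling, quantile normalization, no variance trend, a replicate block, the omission of each library in turn and that of the other strain. Results for some list members are not reported here. No sequences are given, since none were used here.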

Additional observations from a re-analysis of the deposited data

How the results depend on the processing

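The calls of sox11 from stage 6 to 11, of fabp7 from stage 11 to 15 and from 15 to 19, and of gap43 and snap25 from stage 19 to 25 and from 25 to 29 held under every alternative, and so did the F test of each gene. The causes of the changes below were not tested, except that leaving out a library leaves 1 sample at that stage, which was assumed to vary like the others. Median-of-ratios scaling ended the call of sox11 from stage 11 to 15 (-1.15). Quantile normalization ended it too (-1.24), ended the call of fabp7 from stage 25 to 29 (1.23), and turned the sign of uncalled changes of sox11 from stage 15 to 19 (0.072), gap43 from stage 11 to 15 (0.011) and snap25 from stage 6 to 11 (-0.082). With a pseudocount of 0.1, fabp7 (1.75) and gap43 (2.28) were called from stage 6 to 11, fabp7 from stage 25 to 29 was not (1.40), and gap43 from stage 11 to 15 changed sign (0.12). Without the other strain, sox11 from stage 40 to 41 was not called (-1.43) and fabp7 at that step had the opposite sign (0.16). Omitting the filter or the variance trend changed none of the 40 step results.

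The replicate block gave calls for sox11 from stage 25 to 29 (1.57, limma adjusted p = 0.0453), fabp7 from stage 36 to 38 (-1.27, 0.0417), and snap25 from stage 32 to 36 (1.25, 0.0443) and from 40 to 41 (-1.04, 0.0467), so that snap25 had 4 called steps with the replicate block in place of 2. It ended no call of the 4 genes. Correlations between the replicate differences of 2 stages ran from 0.048 to 0.669 over the 55 pairs of stages (median 0.256), and 2 were at or below 0.1, so the numbers were not taken as pairs.

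Leaving out each of the 22 libraries gave ranges, for sox11, of -1.92 to -1.08 from stage 11 to 15, -1.16 to 0.68 from 15 to 19, -0.47 to 1.37 from 19 to 25, 1.47 to 1.67 from 25 to 29, -0.031 to 0.21 from 29 to 32, -1.15 to 0.12 from 32 to 36, -2.19 to -0.93 from 36 to 38, -2.15 to -1.38 from 40 to 41 and -0.046 to 0.80 for stage 32 from 11. The sox11 count of 3 called steps ran from 2 to 5, and was 5 without either library of stage 19 or without replicate 1 of stage 36. For fabp7 the ranges were 1.13 to 1.68 from stage 25 to 29 and -1.65 to -0.90 from 36 to 38. For gap43 they were -0.52 to 0.37 from stage 11 to 15, -0.45 to 0.082 from 15 to 19, -1.43 to -0.30 from 36 to 38 and -0.96 to 0.16 from 38 to 40. For snap25 they were 0 to 0.035 from stage 6 to 11, 0 to 0.060 from 15 to 19, 0.56 to 1.95 from 32 to 36 and -0.94 to 0.0081 from 38 to 40.

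In replicate 2 alone sox11 was highest at stage 36 and gap43 first reached 50% of its maximum at stage 29, and in replicate 1 alone snap25 did so at stage 36. With 25% in place of 50% the stages were 25 for fabp7, 29 for gap43 and 36 for snap25. Median-of-ratios scaling moved the median of all genes from -0.18 to 0.11 at stage 36 to 38 and from -0.22 to -0.04 at stage 40 to 41, and the calls over all genes from stage 11 to 15 from 3193 rises and 4252 falls to 3967 and 3226, and from stage 40 to 41 from 1105 and 2057 to 1516 and 1666. With quantile normalization 762 genes rose and 542 fell from stage 19 to 25 in place of 1520 and 379, and 791 and 297 from stage 25 to 29 in place of 1529 and 220. Among list counts, 5 progenitor rises from stage 11 to 15 became 8 with a pseudocount of 0.1. A Jaccard minimum of 0.8 left 8 of the 13 Sox models and moved no other list by over 1.5 times. That minimum was run without regard to strand, since the RefSeq table has none.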
